A study of Mus musculus with 30 samples.

Results

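Bone marrow (BM) of leptin-deficient LepOb/Ob (Ob/Ob) mice that had received both drugs (Combo, 3 libraries) was compared with BM of wild-type (WT) recipient mice (3 libraries), to describe which genes stayed different from lean recipients, or became so, after combined treatment. These 6 libraries, out of 30 in the series, were chosen by their labels alone, and all 13353 genes of the count table entered the test. Per the labels, recipients in both groups were lethally irradiated and given equal numbers of CD45.2+ cells of Shp2E76K/+;LysM-Cre+ donors and CD45.1+ competitor cells of Boy/J mice. At 8 weeks after transplantation the Ob/Ob recipients began 30 days of treatment, with the GLP-1 receptor (GLP-1R) agonist beinaglutide at 3 mg/kg under the skin and an antibody against IL-17A (200 µg a mouse, injected 3 times a week into the peritoneum), and the vehicle-treated Ob/Ob recipients (Vehicle, 3 libraries) serve here only to tell old differences from new ones. The transplant is described for the study as a whole, and no label gives the donor of a single WT library. The labels give no treatment for WT recipients either, so recipient genotype and drug treatment cannot be told apart in Combo vs WT. LysM-Cre is driven by a lysozyme promoter that is active in the myeloid lineage, the labels name whole bone marrow cells with genotype C57BL/6J for every library, and donor, competitor and residual host cells were sequenced together. The labels give an age of about 12 to 14 weeks without saying at which step, and it cannot hold for both transplantation and harvest. Mice were of both sexes, on a C57BL/6 background, with 3 mice in each treated group per the labels.

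Whole BM holds neutrophils and their precursors, monocytes, macrophages, developing B cells, a few mature lymphocytes, erythroid cells and stroma. Shp2 is a phosphatase that passes growth factor signals to the Ras-ERK pathway, and its activating mutations drive myeloproliferation. Leptin, which Ob/Ob mice lack, controls food intake and is also a support of lymphocyte development. IL-17A acts on stroma and epithelium and raises granulopoiesis and neutrophil chemoattractants, whereas interferons induce a large antiviral gene set in nearly every cell and, in the case of interferon-gamma, antigen presentation.

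The WT libraries held 31777997 to 39925495 counts on genes, the Combo libraries 35880000 to 36909493 and the Vehicle libraries 31281097 to 34797411. Values below are normalized counts (counts scaled by TMM-adjusted library size to the mean depth of all 15 BM libraries), given for replicates 1, 2 and 3 in that order, and a signed value in parentheses after a gene is its Combo vs WT log2 fold change. The biological coefficient of variation was 3.51%, which is low for separate mice, and the files do not show whether replicates are technical or pooled. The p-values and SDs measure only the spread between these libraries. WT replicate 1 stood apart from the other WT libraries, with 669464, 218220 and 250446 normalized counts of the ribosomal RNA transcript Rn45s, and results that rest on it are given without it. Sex-linked genes differed between the groups although the labels call the groups sex-matched. Xist, the X-inactivation RNA of female cells, had 2.6, 0 and 2.15 normalized counts in WT and 3657, 3644 and 3528 in Combo, which is at least 1230.2-fold higher against a floor of 3 counts per library. The Y-linked Eif2s3y had 2776, 2471 and 2398 in WT and 146, 149 and 188 in Combo, and Ddx3y, Kdm5d and Uty were lower too, with log2 fold changes of -3.28, -3.73 and -3.52. All 5 measured sex-linked genes were also called in Vehicle vs WT, in the same direction (list median -1.20 in Vehicle and -3.52 in Combo). The sums of these 5 genes were 8667 to 8995 normalized counts in Vehicle and 3974 to 4080 in Combo, so sex-linked genes differed between these groups as well. Sex of the cells and the group cannot be told apart in these libraries. This limit holds for persistent genes and for new genes, which rest on Combo vs Vehicle, too. With genes of the X and Y chromosomes left out, an alternative chosen after seeing the data, 1855 genes were called in Combo vs WT. That alternative removes only genes on these chromosomes, so it cannot show effects of cell sex on other genes. In bulk BM, fewer cells of a type and less RNA per cell cannot be told apart.

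After combined treatment 1913 of 13353 genes (14.3%) still or newly differed from WT, 587 higher (4.4%) and 1326 lower (9.93%), by edgeR's quasi-likelihood test at an adjusted p below 0.05 and a log2 fold change beyond 1 in either direction. The replicates of 9788 genes (73.3%) did not overlap between the groups, and the median log2 fold change over all genes was -0.025. With library totals alone in place of TMM factors, the split was 395 higher and 1654 lower and the median over all genes -0.17, so directions near 0 depend on the scaling. Vehicle vs WT, which shares the WT libraries, gave 2598 genes (19.5%), 1260 higher (9.44%) and 1338 lower (10%). Combo vs Vehicle gave 2365 genes (17.7%), 878 higher (6.58%) and 1487 lower (11.1%).

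The 1913 genes fell into 4 classes by these calls. Persistent genes, 854 in number (245 higher, 609 lower), differed from WT in the same direction in Vehicle. New genes, 493 in number (151 higher, 342 lower), were not called in Vehicle vs WT and also differed from Vehicle, in the same direction. Without the fold limit 259 of these 493 were still new. The rest passed the test in Vehicle vs WT as well, with a log2 fold change within the limit. Opposed genes, 168 in number, had crossed the WT level, 159 from above it in Vehicle to below it in Combo and 9 the other way. The other 398 genes (182 higher, 216 lower), labelled between, were called in Combo vs WT but not in Vehicle vs WT. They were not called in Combo vs Vehicle in the same direction. The label names the class and does not mean an intermediate level in Combo. Of the 1260 genes higher in Vehicle, 67.9% were no longer called against WT, 19.4% persisted and 12.6% were opposed, and of the 1338 genes lower in Vehicle, 53.8% were no longer called and 45.5% persisted. Among persistent genes the Combo level was called nearer to WT than the Vehicle level for 42 of 245 higher and 71 of 609 lower genes, and called farther from WT for 23 and 80. The plot of both fold changes shows the persistent genes along its diagonal and the opposed genes in the lower right.

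**Figure D1:**
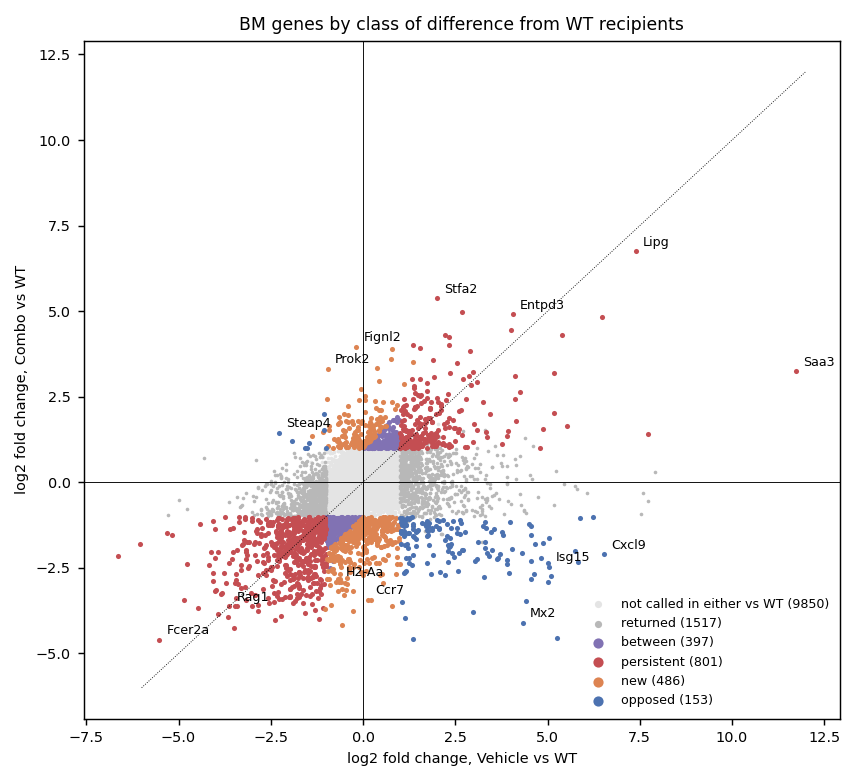
Log2 fold change of each gene in Combo vs WT (vertical axis) against Vehicle vs WT (horizontal axis), both of which share the WT libraries, coloured by class, with the line of equal values dotted. Plotted are 13204 genes, which the legend counts by class, without the 149 genes at or below 3 counts in every library of a group, and the opposed genes Isg15, Mx2 and Cxcl9 sit to the right and below 0.

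Interferon-stimulated genes went from above the WT level in Vehicle to at or below it in Combo. Of 23 measured members 14 fell below WT and 0 rose, with a list median of -1.22 against -0.025 over all genes, while 21 had been higher than WT in Vehicle (median 3.76). All 14 were opposed genes, and 7 others, such as Ifit2, Oas3 and Ddx58, were no longer called. Isg15, a ubiquitin-like antiviral protein, had 958, 1040.5 and 1014 normalized counts in WT, 33006, 31934 and 33374 in Vehicle and 165, 175 and 203 in Combo. Ifit3, which binds viral RNA together with other IFIT proteins, had 512, 497 and 568 in WT, 16891, 17247 and 17103 in Vehicle and 70, 51.9 and 87.6 in Combo. For both genes all Combo libraries were below all WT libraries and all Vehicle libraries far above, and Combo vs WT gave log2 fold changes of -2.47 ± 0.06 and -2.91 ± 0.10 (SE; edgeR adjusted p = 4.2e-30 and 5.1e-21). Mx2, a dynamin-like antiviral GTPase, went from 109, 125 and 131 in WT to 6.17, 11.6 and 3.13 in Combo, from 2429 on average in Vehicle. Ifi44 was near the counting limit in Combo, with 1.03, 5.29 and 0 normalized counts against 51.1, 37.7 and 66.8 in WT, and Ifi27l2a fell to 283, 355 and 295 from 4663, 4895 and 5096 in WT (log2 fold change -3.97 ± 0.05 SE, edgeR adjusted p = 1.3e-40). In the single-agent groups, which share the same WT libraries, the list median against WT was -1.81 with the GLP-1R agonist and -0.89 with the antibody.

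The promoters of Isg15 and Ifit3 are shown because interferon-activated factors bind the interferon-stimulated response element, searched here as GAAANNGAA on either strand. The runs are the 200 bases before the RefSeq start site in GRCm38.p6, 5′ to 3′ on the strand of the gene, with matches in capitals, at chr4:156200819-156201018 (minus strand) for Isg15 and chr19:34583329-34583528 (plus strand) for Ifit3.
Isg15: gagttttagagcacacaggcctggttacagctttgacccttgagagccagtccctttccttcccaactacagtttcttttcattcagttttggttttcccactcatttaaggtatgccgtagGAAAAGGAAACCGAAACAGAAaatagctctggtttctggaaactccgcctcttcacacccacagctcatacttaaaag
Ifit3: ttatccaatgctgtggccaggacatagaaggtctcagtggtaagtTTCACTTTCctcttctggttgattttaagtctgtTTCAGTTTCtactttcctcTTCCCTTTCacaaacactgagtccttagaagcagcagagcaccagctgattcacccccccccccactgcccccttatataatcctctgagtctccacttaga
Isg15 held 3 overlapping matches, starting 78, 72 and 66 bases before the start site, and Ifit3 held 3 separate ones, starting 155, 121 and 102 bases before it. Windows of 300 bases (250 before to 50 after the start) were searched, and a gene counted if any of its RefSeq promoters held a match. Of 104 lower opposed genes with a promoter 36 held a match (34.6%), against 9.06% of the 10113 tested genes with a promoter. The share was 13.8% for lower new genes, 9.63% for lower persistent genes, 9.38% for higher persistent genes and 4.55% for higher new genes. Such matches describe letters and are not measured binding.

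Of 16 measured interferon-gamma-induced genes, 15 had been called higher than WT in Vehicle. In Combo 7 of these fell below WT, 8 were no longer called, and 0 genes of the list were higher. Cxcl9, a chemokine for activated T cells, had 126, 95.2 and 84 normalized counts in WT, 9317, 9769 and 9575 in Vehicle and 26.7, 9.53 and 35.5 in Combo. The guanylate-binding proteins Gbp4 and Gbp6, which attack intracellular microbes, gave log2 fold changes of -2.58 ± 0.10 and -1.80 ± 0.18 (SE; edgeR adjusted p = 8e-25 and 1.2e-11), and the GTPase Iigp1 gave a log2 fold change of -2.81. Gbp6 shares 29% of its exon bases with other genes of the annotation, and reads there counted for each gene. Cxcl11 had 0 counts in WT and Combo. The mRNA of interferon-gamma itself, Ifng, fell from 27.7, 26.8 and 29.1 in WT to 5.14, 0 and 7.3 in Combo. Ubd, a ubiquitin-like modifier induced by interferon-gamma, fell from 154, 148 and 199 in WT to 9.26, 12.7 and 13.6 in Combo, and the T cell chemoattractant Ccl5 gave a log2 fold change of -1.19. Genes of MHC class I presentation were not called below WT: of 10, 9 were higher in Vehicle and 0 were called in Combo vs WT, with log2 fold changes from -0.87 to 0.52 (1 gene was called lower with library totals alone).

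**Figure D2:**
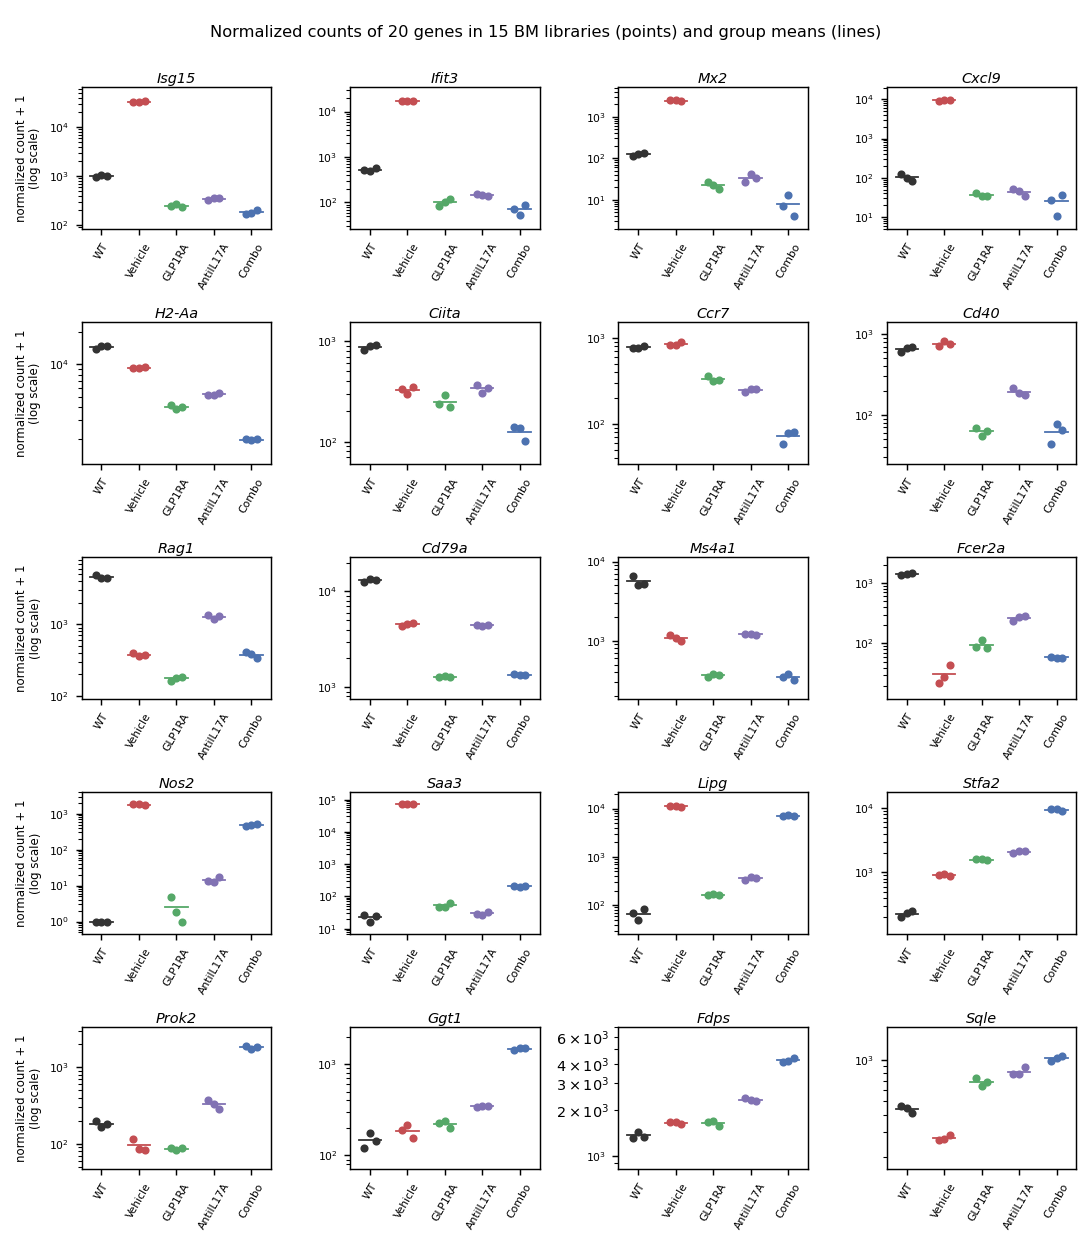
Normalized counts plus 1 (log scale) of 20 genes in each of the 15 BM libraries (points) with the group mean (line), for WT, Vehicle, the GLP-1R agonist (GLP1RA), the antibody (AntiIL17A) and Combo. Replicates lie close together, and Combo libraries lie outside the WT range for every gene shown. Many of these genes were named by a rule that asked for no overlap, and 73.3% of all genes tested had none.

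MHC class II genes were lower than WT without exception: 9 of 9 measured members, with a list median of -2.79 against -0.48 in Vehicle. In the single-agent groups the list median against WT was -1.83 with the GLP-1R agonist and -1.36 with the antibody, so a lower median was not particular to Combo. The alpha chain gene H2-Aa had 14117, 14838 and 15062 normalized counts in WT, 9193, 9244 and 9494 in Vehicle and 1986, 1938 and 1972 in Combo. The beta chain gene H2-Ab1 had 12395, 13595 and 13444 in WT and 2017, 1778 and 1824 in Combo. All Combo libraries of both genes were below all Vehicle libraries, which in turn were below WT, and Combo vs WT gave log2 fold changes of -2.90 ± 0.03 and -2.81 ± 0.04 (SE; edgeR adjusted p = 7.5e-44 and 4.3e-28). Ciita, the master activator of class II transcription, fell from 809, 883 and 922 in WT to 138, 134 and 100.2 in Combo, with 328 on average in Vehicle. H2-Ob, a chain of the peptide-loading modulator DO, gave a log2 fold change of -3.42, and Cd74, the invariant chain, -2.54. By class 5 of the 9 were new, 2 (H2-Ob and Ciita) persistent and 2 (H2-DMa and H2-DMb1) between.

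The promoter of H2-Aa is shown for its Y box, one of the conserved elements of class II promoters, searched as CTGATTGG on either strand after the values were seen. It covers the 200 bases before the RefSeq start site in GRCm38.p6 at chr17:34287824-34288023 (minus strand), 5′ to 3′ on the strand of the gene, with the match in capitals.
H2-Aa: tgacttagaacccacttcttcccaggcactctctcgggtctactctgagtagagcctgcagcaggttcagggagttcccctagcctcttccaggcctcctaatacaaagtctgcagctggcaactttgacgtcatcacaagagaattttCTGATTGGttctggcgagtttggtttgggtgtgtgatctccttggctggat
The match starts 51 bases before the start site. In the windows of 300 bases, 3 of 6 class II genes with a promoter held the motif. The share was 6.43% of all tested genes with a promoter and 8.27% of such lower new genes. None of the 6 held the interferon element.

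Cd40, Ccr7 and Cd83 were among the 8 new genes with the largest decreases. Cd40, the receptor through which T cells license B cells and dendritic cells, had 593, 680.4 and 692 normalized counts in WT, 717, 812 and 759 in Vehicle and 42.2, 76.2 and 63.6 in Combo (log2 fold change -3.43 ± 0.13 SE, edgeR adjusted p = 2.9e-25). Ccr7, which guides dendritic cells and lymphocytes to lymph nodes, had 753, 752 and 803 in WT, 814, 825 and 884 in Vehicle and 57.6, 77.3 and 79.3 in Combo (log2 fold change -3.43 ± 0.10 SE, edgeR adjusted p = 1.8e-28). Cd83, a marker of mature dendritic cells that also stabilizes class II at the surface, had 720.3, 732 and 747 in WT, 518, 482 and 541 in Vehicle and 67.9, 59.3 and 97 in Combo (-3.29). For Cd40 and Ccr7 the Vehicle libraries lay above WT, and for Cd83 below it, while all Combo libraries lay far lower in each. H2-Eb2, a class II beta chain gene, and Sdc4, the heparan sulfate proteoglycan syndecan 4, gave log2 fold changes of -3.12 and -2.95. Of 10 dendritic cell markers 6 were lower and 0 higher (list median -1.57): Cd209a fell from 287, 258 and 244 in WT to 23.7, 13.8 and 29.2 in Combo, against 0, 2.15 and 0 in Vehicle, and Siglech and Ccr9 of plasmacytoid dendritic cells gave log2 fold changes of -1.72 and -1.77. B cells also carry class II, CD40 and CCR7. The 12 early B cell markers summed to 43504 to 45184 normalized counts in WT and 4908 to 5055 in Combo, all 12 were called lower and none was at 0. Their part in the class II result was not tested.

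B lineage markers stayed low after combined treatment. All 12 early B cell markers were lower than WT (median -2.94, and -1.76 in Vehicle), 10 as persistent and 2 (Pax5 and Il7r) as new genes. Their median against WT was -3.36 with the GLP-1R agonist alone and -1.33 with the antibody alone. Rag1, a subunit of the recombinase that assembles antigen receptor genes, had 4924, 4419 and 4503 normalized counts in WT, 398, 362 and 367 in Vehicle and 404, 383 and 336 in Combo, so that Vehicle and Combo overlapped far below WT (log2 fold change -3.62 ± 0.06 SE, edgeR adjusted p = 1.3e-35). Its partner Rag2 had 675, 588 and 573 in WT, 23.8, 17.2 and 42 in Vehicle and 41.2, 66.7 and 36.5 in Combo. Cd79a and Cd79b, the signaling chains of the B cell receptor, were lower in Combo than in Vehicle as well: Cd79a had 12657, 13561 and 13291 in WT, 4345, 4625 and 4685 in Vehicle and 1360.1, 1330.0 and 1348 in Combo. Against WT they gave log2 fold changes of -3.29 ± 0.03 and -3.37 ± 0.04 (SE; edgeR adjusted p = 2.6e-44 and 9.1e-43). Of 8 measured mature B cell markers 7 were lower (median -3.54), all of them persistent, and Cd37, which other leukocytes share, was not called (-0.06). Fcer2a, the low-affinity IgE receptor CD23, had 1355, 1395 and 1447 in WT, 21.5, 26.8 and 43.2 in Vehicle and 58.6, 57.2 and 57.4 in Combo (log2 fold change -4.59 ± 0.12 SE, edgeR adjusted p = 3.5e-31). Ms4a1, which encodes CD20, fell from 6546, 5112 and 5275 in WT to 347, 377 and 321 in Combo, below 1180.5, 1089 and 981 in Vehicle. The complement receptor Cr2 and the Fc receptor-like Fcrla gave log2 fold changes of -3.77 and -3.62.

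Of 8 plasma cell genes 6 were lower, with the joining chain Jchain at 31163, 29606 and 30105 in WT and 8314, 7901 and 8505 in Combo. Irf4, Sdc1 and Mzb1 gave log2 fold changes of -2.85, -2.16 and -2.96, and Mzb1 shares 57.2% of its exon bases with other genes. The gene Xbp1, which many secretory cells use, was not called (0.54). The immunoglobulin genes Ighm and Ighd and the T cell receptor genes Trac and Trbc2 were not analysed here.

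T and NK cell genes were lower than WT as well. Of 10 measured T cell markers 6 were lower (median -1.10) and 4 without WT replicate 1, whereas 0 were called in Vehicle vs WT (median -0.24). Cd3d, a chain of the T cell receptor complex, had 596, 684 and 572 in WT, 397, 441 and 398 in Vehicle and 218, 174 and 189.9 in Combo (log2 fold change -1.67 ± 0.09 SE, edgeR adjusted p = 1.1e-19). The kinase Lck and the coreceptor Cd8a gave log2 fold changes of -1.47 and -1.19, and both were called lower than Vehicle too. Of 10 NK and cytotoxic genes 8 were lower (median -1.87). Klrk1, the activating receptor NKG2D, had 725, 587 and 701 in WT, 1363, 1179 and 1304 in Vehicle and 179, 108 and 156 in Combo, so that Combo was lowest and Vehicle highest. Gzma, a granzyme, had 869, 879.8 and 904 in WT, 3175, 3237 and 3143 in Vehicle and 124, 118 and 175 in Combo. The natural cytotoxicity receptor Ncr1 was low in both Vehicle and Combo, with 319, 287 and 327 in WT, 78.2, 64.4 and 75.6 in Vehicle and 70, 74.1 and 70.9 in Combo (-2.12), and Klre1 gave a log2 fold change of -3.02. Among new genes the inhibitory receptor Klrc1 (NKG2A) and the Ly49 receptors Klra7 and Klra3 gave log2 fold changes of -3.18, -2.96 and -2.92. The Ly49 genes are near-identical copies of each other, and the split of reads among them is uncertain.

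**Figure D3:**
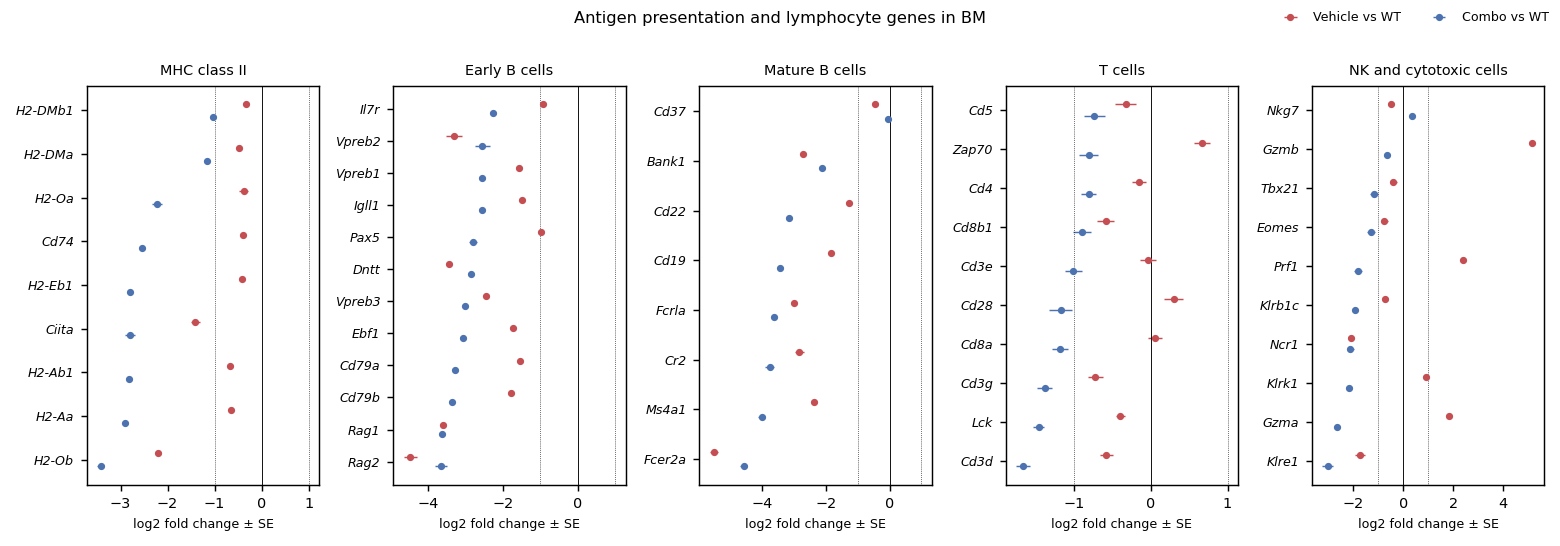
Log2 fold change with its SE of each measured gene of 5 lists in Combo vs WT and Vehicle vs WT, which share the WT libraries, with dotted lines at -1 and 1. All 9 class II genes and all 12 early B cell genes lie below -1 in Combo vs WT.

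Several macrophage genes were lower. Of 15 monocyte and macrophage markers 7 were lower and 0 higher (median -0.84). Spic, the transcription factor of red pulp and BM macrophages that recycle iron, had 424, 361 and 383 in WT, 556, 404 and 433 in Vehicle and 87.5, 78.4 and 85.5 in Combo (log2 fold change -2.22 ± 0.13 SE, edgeR adjusted p = 5.8e-18). The complement genes C1qa and C1qb, which tissue macrophages make, gave log2 fold changes of -1.56 and -1.79. Cx3cr1 was lower in Vehicle still, with 1336, 1259 and 1315 in WT, 211, 201 and 203 in Vehicle and 447, 433 and 461 in Combo. Csf1r, Cd68 and Ccr2 were not called (-0.25, -0.17 and -0.59). Of 10 mast cell, basophil and eosinophil genes 4 were lower, among them Il5ra (-1.98) and Mcpt8 (-1.10). Of 10 megakaryocyte and platelet genes 4 were lower, led by Ppbp (-2.75). Of 8 measured erythroid genes 1 was lower, the heme enzyme Alas2 (-1.46), against 9.93% of all genes tested. Alas2 is on the X chromosome, and 0 erythroid genes were called with genes of the X and Y chromosomes left out.

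Of 7 primary granule genes 2 were higher and 0 lower (median 0.85), with 1 higher with library totals alone and 3 without WT replicate 2 or WT replicate 3. Mpo, the myeloperoxidase of promyelocytes, had 84517, 95774 and 91982 in WT, 58632, 60204 and 60588 in Vehicle and 191398, 194454 and 195405 in Combo (log2 fold change 1.09 ± 0.03 SE, edgeR adjusted p = 7.9e-24; 0.95 with library totals alone, which ends the call). Prtn3, proteinase 3, had 25258, 26941 and 27158 in WT, 26749, 27115 and 27899 in Vehicle and 58658, 59274 and 59186 in Combo (log2 fold change 1.16 ± 0.02 SE, edgeR adjusted p = 1.2e-33). Both were new, with WT and Vehicle libraries alike below all Combo libraries. Of 12 measured late granule and mature neutrophil genes 2 were higher, the surface glycoprotein Cd177 (log2 fold change 1.33 ± 0.03 SE, edgeR adjusted p = 3.3e-33) and the siderophore binder Lcn2 (log2 fold change 1.22 ± 0.03 SE, edgeR adjusted p = 5.7e-23), while S100a8 and S100a9 were not called (0.07 and 0.10). The 12 late granule genes summed to 3850770 to 4097600 normalized counts in WT and 5084760 to 5140570 in Combo, and the 7 primary granule genes to 199763 to 219737 and 393084 to 399022. The part of such a shift in the other results was not tested.

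Of the genes that stayed high, Nos2, the inducible nitric oxide synthase, had no count in any WT library, 1813, 1831 and 1712 normalized counts in Vehicle and 443, 495 and 525 in Combo. It was at least 166-fold higher than WT against the floor of 3 counts per library, and its Combo vs Vehicle log2 fold change was -1.87. Lipg, endothelial lipase, had 69.3, 49.6 and 80.7 in WT, 11165, 11198 and 10992 in Vehicle and 6988, 7321 and 7046 in Combo (log2 fold change 6.74 ± 0.06 SE, edgeR adjusted p = 3.4e-46). Saa3, an acute-phase apolipoprotein, had 25.1, 14.9 and 23.7 in WT, 70778, 73811 and 75149 in Vehicle and 207, 189.5 and 213 in Combo (log2 fold change 3.24 ± 0.12 SE, edgeR adjusted p = 1.1e-22). Its Combo libraries were thus much nearer WT than Vehicle and still above every WT library. Entpd3, an ectonucleotidase that degrades extracellular ATP, was higher in Combo than in Vehicle, though by less than the fold limit. It had 39, 34.7 and 26.9 in WT, 541, 566 and 594 in Vehicle and 1018, 1081 and 977 in Combo (Combo vs WT log2 fold change 4.91 ± 0.11 SE, edgeR adjusted p = 1.8e-32). The NF-kB cofactor Bcl3 and the cytokine-signaling inhibitor Socs3 gave log2 fold changes of 1.43 and 1.13 against WT, and Socs3 was at 0.98, under the limit, with library totals alone.

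Il17a and Il22 had 0 counts in all WT and Combo libraries, where a count of 0 allows up to 3 counts per library, whereas Il17a had 20.4, 22.6 and 33.6 normalized counts in Vehicle. The receptor Il17ra passed the test but not the fold limit (log2 fold change 0.35 ± 0.02 SE, edgeR adjusted p = 3.8e-16), with 10896, 11389.8 and 11350.2 in WT and 14286, 14301 and 14401 in Combo. Of 10 measured genes of the IL-17 axis 1 was lower, the receptor adaptor Traf3ip2 (log2 fold change -1.66 ± 0.12 SE, edgeR adjusted p = 4.4e-16), and 1 more, the low-count Il17f (1.73, 0 and 1.08 in WT and 8.23, 3.18 and 2.09 in Combo), was called higher without WT replicate 1, Combo replicate 2 or Combo replicate 3, and by DESeq2 with all libraries. Of 9 measured neutrophil chemoattractant genes 3 were higher and 1 lower, against 1 higher and 2 lower with library totals alone. Among all genes tested, 4.4% were higher and 9.93% lower. Cxcl2 had 494, 490.0 and 476 in WT, 3308, 3269.9 and 3305 in Vehicle and 1024, 931 and 1032 in Combo (log2 fold change 1.03 ± 0.06 SE, edgeR adjusted p = 9e-20; 0.88 with library totals alone and 0.997 without Vehicle replicate 3, both under the limit), and its receptor Cxcr2 was not called (0.91). Cxcl1 and Cxcl3 had at most 11.5 normalized counts in these libraries, and their calls depended on single libraries, that of Cxcl3 also on the scaling (adjusted p = 0.053 in edgeR with library totals alone). Of 13 measured cytokine genes 7 were lower and 0 higher. Il1b, an inflammasome-processed cytokine, had 5166, 5031 and 5034 in WT, 604, 532 and 555 in Vehicle and 1312, 1277 and 1305 in Combo (log2 fold change -1.97 ± 0.04 SE, edgeR adjusted p = 1.1e-34), so Combo lay between both. Il18 was new, at 284, 263 and 256 in WT, 463, 389 and 366 in Vehicle and 60.7, 56.1 and 49 in Combo. Tnf and Il6 were not called (0.58 and -0.77). The chemokine gene Ccl6 was low in both Vehicle and Combo, with 26341, 22176 and 23511 in WT, 8791, 8346 and 8041 in Vehicle and 8571, 8655 and 8196 in Combo. Of 12 monocyte chemokine and receptor genes 4 were lower and 0 higher, and Ccl2 was not called (-0.09).

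The stefin A genes, inhibitors of cysteine cathepsins that mouse neutrophils express highly, rose above both WT and Vehicle. They lie together at chr16:36156811-36455392 (GRCm38), and all 8 measured genes of the cluster were higher, 5 as persistent and 3 as new genes (the set was defined after its values were seen). Stfa2 had 202, 237 and 247 in WT, 914, 946 and 876 in Vehicle and 9728, 9573 and 9033 in Combo (log2 fold change 5.38 ± 0.05 SE, edgeR adjusted p = 4.1e-45). Stfa1 and Stfa3 gave log2 fold changes of 4.01 ± 0.04 and 4.02 ± 0.06 (SE; edgeR adjusted p = 5.2e-45 and 1.5e-30), and BC100530 and BC117090 gave log2 fold changes of 4.97 and 3.61. The genes are close copies, so the split of reads among them is uncertain, and their sum was 7444 ± 533 (SD, n = 3) in WT, 11917 ± 242 in Vehicle and 56364 ± 1434 in Combo, 7.57-fold higher than WT.

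Other new genes were higher in Combo than in both WT and Vehicle. Prok2, a chemokine-like peptide of granulocytes, had 199, 166 and 181 in WT, 116, 83.8 and 81.6 in Vehicle and 1900.2, 1746 and 1840.3 in Combo (log2 fold change 3.32 ± 0.09 SE, edgeR adjusted p = 2.5e-30). Ggt1, the enzyme that starts the breakdown of extracellular glutathione, had 120.3, 173 and 142 in WT, 188, 215 and 152 in Vehicle and 1417, 1485 and 1498 in Combo (log2 fold change 3.34 ± 0.10 SE, edgeR adjusted p = 8e-29). Acox2, the peroxisomal oxidase of branched-chain fatty acids and bile acid intermediates, had no count in WT or Vehicle and 34, 60.4 and 57.4 in Combo, at least 17.2-fold higher than WT. Svep1, an extracellular matrix protein, and Fignl2 gave log2 fold changes of 3.88 ± 0.27 and 3.97 ± 0.32 (SE; edgeR adjusted p = 4.3e-16 and 4.4e-14), from at most 19.8 and 13.9 normalized counts in WT, and Svep1 shares 13.9% of its exon bases with other genes. Podxl, a sialomucin, Fah, the last enzyme of tyrosine breakdown, and Rph3a, a vesicle-trafficking protein, gave log2 fold changes of 2.97, 2.42 and 2.39.

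Several genes of sterol and fatty acid synthesis were new genes that rose. Of 19 genes of cholesterol and fatty acid synthesis 8 were higher and 1 lower (median 0.83, and -0.24 in Vehicle), and 6 were higher with library totals alone. Fdps, an enzyme of the mevalonate pathway, had 1311, 1441 and 1336 in WT, 1659, 1676 and 1617 in Vehicle and 4147, 4205 and 4401 in Combo (log2 fold change 1.64 ± 0.04 SE, edgeR adjusted p = 3.1e-31). Sqle, the squalene epoxidase, had 463, 447 and 413 in WT, 262, 268 and 284 in Vehicle and 975, 1021 and 1067 in Combo (log2 fold change 1.21 ± 0.07 SE, edgeR adjusted p = 5.5e-19). Combo exceeded every WT and Vehicle library of both. The transcriptional regulator Srebf2 gave a log2 fold change of 1.13. Fdps shares 26.7% of its exon bases with other genes. The fatty acid synthesis genes Fasn and Acaca were called against WT only (1.31 and 1.27). Scd1, the desaturase that makes monounsaturated fatty acids, went the other way, with 3398, 3162 and 3267 in WT, 3113, 3286 and 3172 in Vehicle and 835, 721 and 768 in Combo (log2 fold change -2.08 ± 0.05 SE, edgeR adjusted p = 4.8e-33).

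Several genes of the list of lipid efflux and lipid-associated macrophages were lower. Nr1h3, the sterol-sensing receptor LXR-alpha, had 272, 240.0 and 259 in WT, 263, 309 and 214 in Vehicle and 48.4, 49.8 and 52.2 in Combo (log2 fold change -2.36 ± 0.16 SE, edgeR adjusted p = 1.6e-16). The exporter Abca1, Apoe and the ubiquitin ligase Mylip gave log2 fold changes of -1.30, -1.03 and -1.14, and Abcg1 was not called (-0.65). Of 11 genes of lipid efflux and lipid-associated macrophages 5 were lower and 1 (Lipg) higher. The fatty acid transporter Cd36 was persistent (-1.53).

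All 14 glycolysis genes had positive log2 fold changes, from 0.53 to 1.22 (median 0.78 in Combo and 0.78 in Vehicle), and 4 passed the fold limit (5 without WT replicate 2). Slc2a1, the glucose transporter GLUT1, had 744, 795 and 701 in WT, 2810.0, 2961 and 2808 in Vehicle and 1804, 1772 and 1661 in Combo (log2 fold change 1.22 ± 0.05 SE, edgeR adjusted p = 3.3e-23). Gpi1, Gapdh and Pkm gave log2 fold changes of 1.22, 1.20 and 1.16. Of 11 measured fatty acid oxidation genes 1 was higher, Acox2. Of 20 cell cycle genes 1 was higher, the mitotic kinase Plk1 (1.11, and 0.97 with library totals alone). Over all genes tested 4.4% were higher, so a single call in such a list is not read as a result about it. Igf1r was higher (1.04, and 0.89 with library totals alone) and the growth factor gene Igf1 lower (-1.84), and Glp1r was not analysed here.

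**Figure D4:**
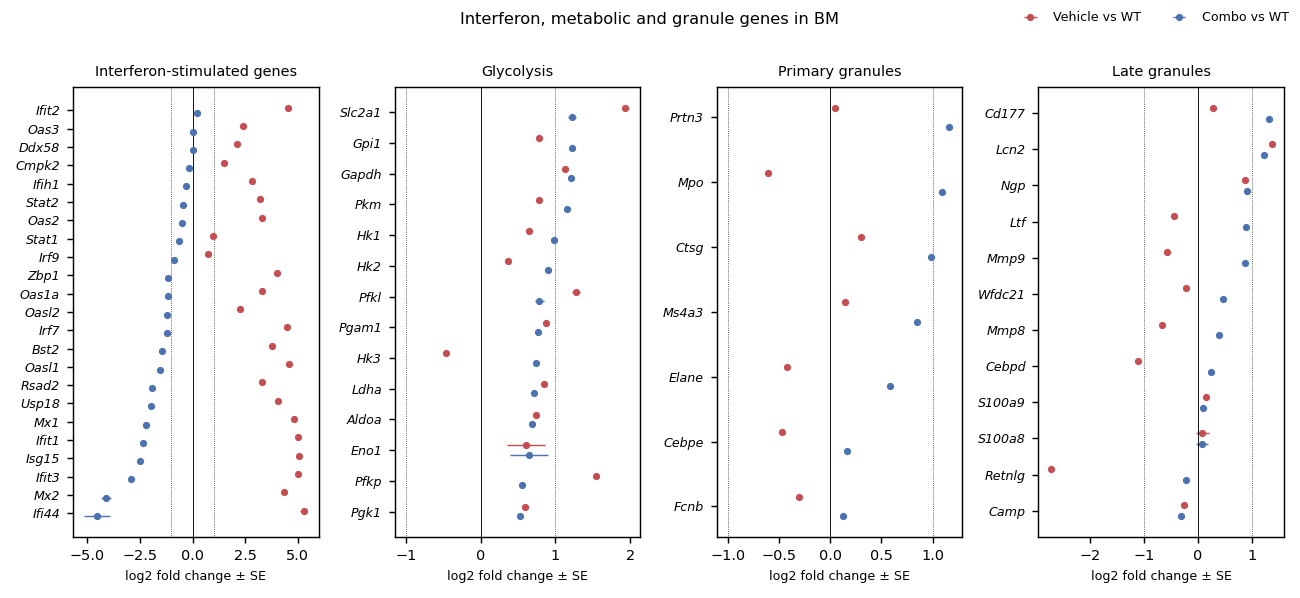
Log2 fold change with its SE of each measured gene of 4 lists in Combo vs WT and Vehicle vs WT, which share the WT libraries, with dotted lines at -1 and 1. Interferon-stimulated genes lie right of 0 in Vehicle and mostly left of 0 in Combo, and all 14 glycolysis genes lie right of 0 in Combo.

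The 9 opposed genes that were higher than WT had been lower in Vehicle. Acvrl1, the BMP9 receptor ALK1, had 2314, 2428 and 2529 in WT, 1173, 1162 and 1184 in Vehicle and 6818, 7082 and 6909 in Combo (log2 fold change 1.52 ± 0.03 SE, edgeR adjusted p = 1.8e-32). Steap4, a metalloreductase, had 486, 471 and 393 in WT, 78.2, 105 and 96 in Vehicle and 1139, 1268 and 1278 in Combo (log2 fold change 1.44 ± 0.08 SE, edgeR adjusted p = 1.3e-19). In both genes the 3 groups did not overlap. The adhesion molecule Mcam and the chemokine receptor Cxcr1 gave log2 fold changes of 2.00 and 1.21, and Ccdc149 gave a log2 fold change of 1.13, or 0.95 without Combo replicate 2 and 0.99 with library totals alone, both below the limit.

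Ptpn11, which encodes Shp2, passed the test against WT but not the fold limit (log2 fold change 0.65 ± 0.03 SE, edgeR adjusted p = 2.4e-22), with 3395, 3454 and 3528 in WT and 5418, 5413 and 5453 in Combo, and the counts do not tell the mutant allele from the normal one. Of 15 genes of Ras-ERK signaling and its feedback 4 were lower and 1 higher. The ERK phosphatases Dusp4 and Dusp5 were new, at -1.88 and -1.60. Of 12 stem and progenitor genes Sox4 was lower (log2 fold change -2.25 ± 0.07 SE, edgeR adjusted p = 3.3e-26; Combo vs Vehicle log2 fold change 0.02) and Hlf higher (log2 fold change 1.23 ± 0.13 SE, edgeR adjusted p = 8.6e-11), with Kit at 0.66 and Flt3 at 0.27, and 2 genes were lower without Combo replicate 1 or WT replicate 1. Sox4 shares 54.6% of its exon bases with other genes. Of all genes tested, 4.4% were called higher and 9.93% lower. The niche factors Cxcl12 and Kitl stayed low (-1.31 and -1.68), as did Lepr, the leptin receptor, with 152, 110.1 and 118 in WT and 62.8, 59.3 and 57.4 in Combo (-1.09, and -0.93 without WT replicate 1, which is within the limit). The collagen genes Col1a1 and Col3a1 were higher (1.40 and 2.14), and the osteoblast gene Bglap lower (-3.13), so that of 13 stroma and endothelium genes 3 rose and 5 fell. Of 7 measured adipocyte genes 4 fell, among them Fabp4 (-2.14), Adipoq (-1.18) and the adipogenic factor Pparg (-1.50).

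Among the largest persistent decreases were also genes of little known role in BM. Scn4a, a sodium channel of skeletal muscle, had a log2 fold change of -3.90 ± 0.22 SE, edgeR adjusted p = 4.7e-19, with 212, 285 and 226 in WT, 40.8, 49.4 and 66 in Vehicle and 17.5, 11.6 and 18.8 in Combo. Col27a1, a fibrillar collagen, Rbm24, an RNA-binding protein, and Tmem132e gave log2 fold changes of -3.81, -3.83 and -3.94. Rbm24 and Tmem132e did not differ from Vehicle beyond the limit (Combo vs Vehicle 0.10 and -0.29). BC094916, an opposed gene, had 122, 127 and 109.8 in WT, 342, 316 and 264 in Vehicle and 4.12, 7.41 and 3.13 in Combo.

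Several smaller groups held few called genes, where 4.4% of all genes tested were called higher and 9.93% lower. Of 14 immediate early and heat shock genes 3 fell and 1 rose: Atf3, a stress-induced transcription factor, had 250.2, 269.8 and 279 in WT, 611, 628 and 612 in Vehicle and 77.2, 57.2 and 76.2 in Combo, and the heat shock gene Hspa1b gave a log2 fold change of -1.35. Hspa1a, a near-identical copy of Hspa1b, gave a log2 fold change of -1.02 and was within the limit without Combo replicate 1, Combo replicate 2 or WT replicate 1 (-0.90, -0.99 and -0.93). Fosl1, a partner of Jun proteins, gave a log2 fold change of 2.43 at low counts and shares 57.2% of its exon bases with other genes. Of the Ras-ERK genes, the cyclin gene Ccnd1 gave a log2 fold change of -1.04 (within the limit without Combo replicate 3 or WT replicate 1) and the inhibitor gene Spred2 1.05 (within it without Combo replicate 2 and with library totals alone). The megakaryocyte genes Treml1, Pf4 and Tubb1 gave log2 fold changes of -2.43, -1.70 and -1.64, and the eosinophil receptor Ccr3 and the IgE receptor chain Fcer1a -1.48 and -1.21. The NF-kB inhibitor Nfkbie and the cytokine Il1a gave log2 fold changes of -1.35 and -2.12, and the low-count chemokine Ccl7 was called lower only with WT replicate 1 in the fit. Lpl, lipoprotein lipase, gave a log2 fold change of -1.46, and the insulin receptor substrate Irs1 -1.72, so that of 8 measured genes of GLP-1, insulin and adipokine reception 2 rose and 2 fell, against 0 and 2 with library totals alone.

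The plot of list medians sets these groups side by side. The lists with the lowest medians in Combo vs WT were mature B cells, early B cells and class II, and the lists whose median changed sign between Vehicle and Combo include both interferon lists, MHC class I presentation and monocyte chemokines. Of 9 immune checkpoint genes 1 was lower, Pdcd1 (-1.56), and 7 had been higher in Vehicle, but 5 were lower with library totals alone, 3 without Combo replicate 3 and 2 without Combo replicate 1, Combo replicate 2, WT replicate 3 or Vehicle replicate 3. Of 10 NF-kB targets 1 was higher and 1 lower (4 lower with library totals alone and 2 without WT replicate 1). Since 4.4% of all genes tested were higher and 9.93% lower, single calls in such short lists are not read as results about them. Of 7 NRF2 targets 0 were called (1 lower with library totals alone), and of 9 genes of the unfolded protein response 1 (Asns, 1.03, or 0.98 without WT replicate 1, 0.997 without Vehicle replicate 3 and 0.88 with library totals alone, each within the limit) was higher.

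**Figure D5:**
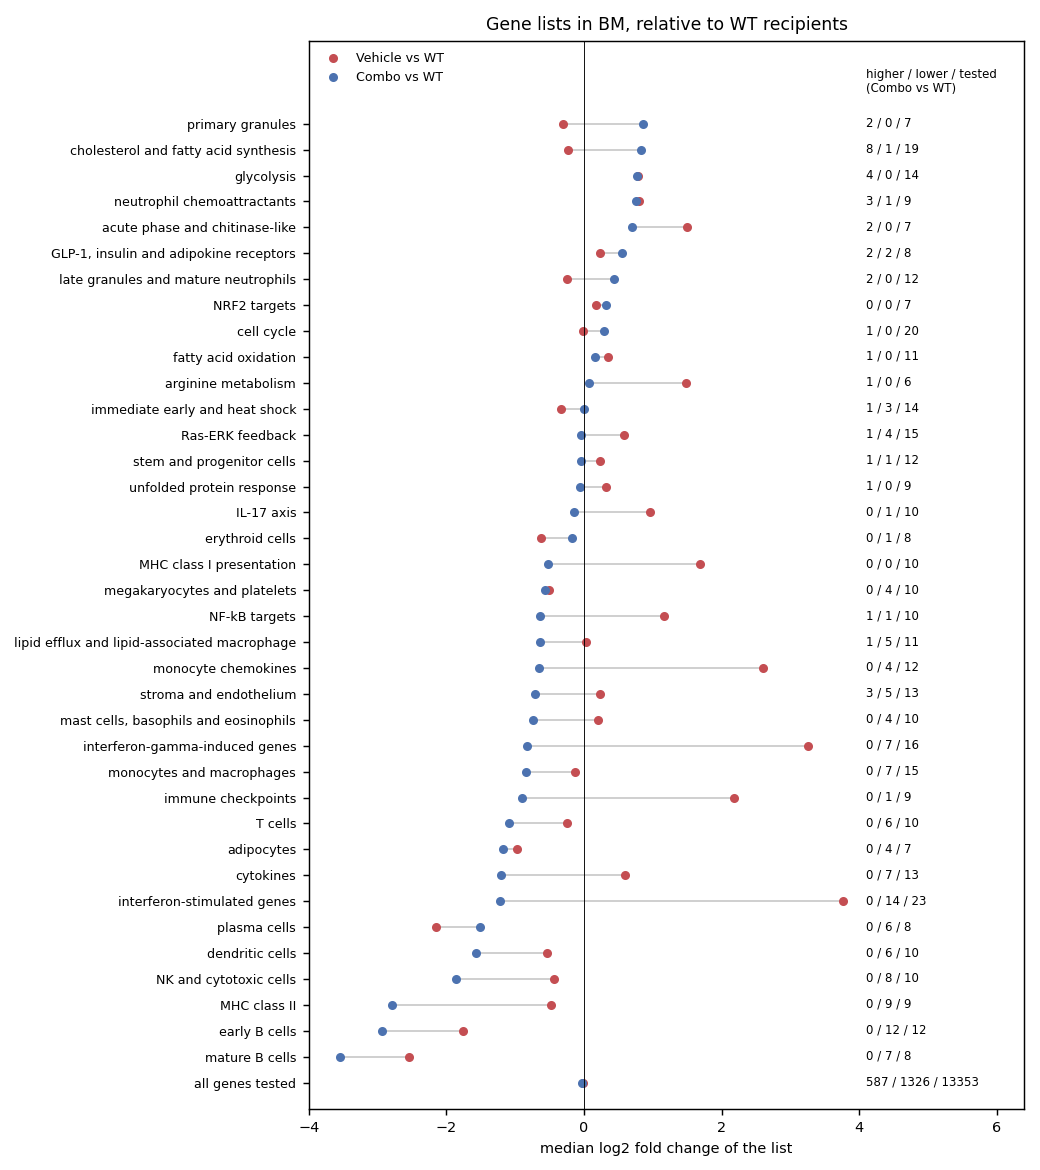
Median log2 fold change of each of 37 gene lists and of all genes tested in Vehicle vs WT and Combo vs WT, which share the WT libraries, with the number of members called higher and lower in Combo vs WT and the number tested at the right. Mature B cells (-3.54) sit lowest and primary granules (0.85) highest in Combo vs WT.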

How the data were processed

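Poly(A) RNA of whole BM was sequenced in 3 libraries per group, all labelled Batch 1. Per the study's methods, the authors aligned reads to mm10 (GRCm38) with STAR 2.7.2a, counted those of mapping quality 10 or more with featureCounts 2.0.1, without strand and for every gene a read overlapped, and deposited raw counts per gene. All 15 BM libraries were fitted in edgeR 4.0.16 (TMM, robust quasi-likelihood), with calls at an adjusted p (Benjamini-Hochberg) under 0.05 and an absolute log2 fold change over 1. filterByExpr removed 0 genes. The lowest total of a gene over the 15 BM libraries was 55 counts, so genes with fewer counts were absent before this filter. Genes with 0 counts in WT and Combo, such as Il17a, were thus tested through their counts in other groups. Genes at or below 3 counts in every library of a group get bounds, not folds. The fit was tested on simulated data. Members and lists were chosen with earlier results of these data known. Genes were named by a rule that took 149 genes: the largest changes of each class and direction with a mean of at least 50 normalized counts and no overlap, and up to 4 called members of each list. Others are named beside them for context, chosen after their values were seen. Coordinates are from GENCODE M21 (12877 genes matched). Alternatives, DESeq2 1.42.0 among them, are in the closing section. The adipose tissue macrophage table was not used, and some genes are not reported here.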

Additional observations from a re-analysis of the deposited data

How the results depend on the processing

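Without a limit on the fold change, 9792 genes were called in Combo vs WT, 10227 in Vehicle vs WT and 9849 in Combo vs Vehicle, of which 5907 were persistent, 1548 new and 2088 opposed. With edgeR's glmTreat test against a log2 fold change of 1, the counts were 1125, 1696, 1474, 445, 270 and 83 in the same order. Under the remaining alternatives these 6 counts stayed within 1.5 times their values in the report, while counts of short gene lists moved more, as given there. Leaving out 1 WT, Vehicle or Combo library gave 1890 to 1946 genes in Combo vs WT, 2561 to 2608 in Vehicle vs WT, 2301 to 2373 in Combo vs Vehicle, 834 to 869 persistent, 481 to 509 new and 156 to 175 opposed genes. DESeq2 called 1906 genes in Combo vs WT, its size factors in edgeR 1914, and a fit on the WT and Combo libraries alone 1823. No pairing by replicate number was seen: deviations of same-numbered libraries correlated at r = -0.0235 to 0.0523. With so little spread between replicates, these values cannot show whether same-numbered libraries were handled as sets. The fit with the replicate block called 1908 genes in Combo vs WT, 2595 in Vehicle vs WT and 2362 in Combo vs Vehicle.

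None of the 149 genes named by rule reversed under any alternative. Across these genes and alternatives, 2768 calls stayed as they were, 49 were lost (19 of them with glmTreat and 9 with library totals alone) and 2 were gained (Il17ra and Ptpn11, without the fold limit). Cxcl1 lost its call without any 1 Combo library and without WT replicate 1 or 2, and Cxcl3 without Combo replicate 2 or 3 and without WT replicate 2 or 3. The cause was not tested. Recipient genotype, drug treatment and the sex of the cells cannot be told apart in Combo vs WT, nor genotype and sex in Vehicle vs WT. In Combo vs Vehicle, on which new genes rest, drug treatment and the sex of the cells cannot be told apart either. Sums over unsorted BM do not tell cell number from RNA per cell.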

Other observations

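Families that lie together on a chromosome often held several called genes, and the sets here were defined after their values were seen, so they carry no test. The Gimap genes, which encode GTPases that support lymphocyte survival, lie at chr6:48647234-48770851 (GRCm38), and all 8 measured members were lower in Combo than in WT, 6 of them as new genes. Their summed normalized counts were 10803 ± 334 (SD, n = 3) in WT, 8721 ± 119.9 in Vehicle and 2888 ± 100.1 in Combo. The interferon-inducible IFI200 family, DNA-sensing and related proteins at chr1:173350879-174031810, had 8 of 9 members lower in Combo than in WT, all 8 opposed, with sums of 14755 ± 1333 in WT, 57814 ± 1740.1 in Vehicle and 3168 ± 56.6 in Combo. Of 17 killer cell lectin-like receptor genes, Klrg1 among them, 14 were lower than WT, 7 as persistent and 7 as new genes. These 17 are spread over chr6:122270596-131247362 and do not form a single compact cluster. Of 11 membrane-spanning 4A genes on chromosome 19, which include the CD20 gene Ms4a1, 6 were lower. Members of these families are alike in sequence, and the split of reads among them is uncertain.

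Groups of neighbours also rose. Plin4, Plin5, Lrg1, Sema6b and Dpp9, at chr17:56100591-56218905, were all 5 higher than WT, 4 as persistent genes, with sums of 7960 ± 308 in WT, 33303 ± 667 in Vehicle and 37521 ± 472 in Combo. Lrg1 encodes a neutrophil granule glycoprotein and the perilipins coat lipid droplets. Galnt6, Slc4a8, Fignl2, Acvrl1 and Acvr1b on chromosome 15 were all 5 higher too, with sums of 4228 ± 75.9 in WT, 5373 ± 67.6 in Vehicle and 11636 ± 111.9 in Combo. In the order of the count table, 19.9% of genes called higher and 37.6% of genes called lower had a direct neighbour called in the same direction, against 7.87% and 16% of the other genes. Reads that overlapped several genes were counted for each of them, and the part of such reads in these shares was not tested.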
